A study of Mus musculus with 18 samples.

Results

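The transcripts described here encode the mitochondrial solute carriers, the Slc25 family, in mouse adipocytes of the 3T3-L1 line. Members were the family genes analysed here, taken as probes whose gene symbol in the platform annotation is Slc25a followed by a number, with a family gene not analysed here set aside. This gave 73 of the 45281 probes on the array, for 45 genes. Of these, 47 probes and 32 genes lay above background on at least 3 of the 18 arrays and were tested among 10957 genes. 3T3-L1 is a clonal preadipocyte line from mouse embryo fibroblasts that forms adipocytes in culture, so all groups come from 1 line. Per the labels' protocols the cells were differentiated for 7 days, in the controls and the treated groups alike, and then kept for 24 hours in 1 of 6 conditions. These were the vehicle DMSO, rosiglitazone at 100 nM, diclofenac as its sodium salt at 25 µM, indomethacin at 10 µM, ibuprofen at 75 µM, and GQ16 at 10 µM. Each condition had 3 samples and 1 Illumina array for each sample. Rosiglitazone is a thiazolidinedione agonist of PPARγ, the nuclear receptor at the head of the adipocyte program. The next 3 compounds are non-steroidal anti-inflammatory drugs, and the question named in the title is the mechanism by which they and GQ16 act on PPARγ. The concentrations differ, so each difference between compounds below is a difference at the concentrations used. The labels do not say whether samples came from separate cultures, so p-values rest on the spread among them, which may be technical only.

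Values are the deposited normalized log2 intensities, which the authors had quantile normalized. On every array 42.1% of probes exceeded the background level of 6.18. Rosiglitazone replicate 1 and DMSO replicate 3 each deviated most within their own group (root mean square deviations of 0.286 and 0.207 over the genes tested). Rosiglitazone replicate 2 deviated by 0.229, more than DMSO replicate 3, and was kept. Rosiglitazone replicate 1 and DMSO replicate 3 are called the outlying arrays below. Where leaving out both changed a call, the value without them is given with the gene. Both were picked from these data for their deviation, so leaving them out tends to lower the estimated spread. Adjusted p-values of that refit are thus biased toward passing. The arrays sat on 3 slides. Slide 1 held DMSO replicates 1 and 2, rosiglitazone replicates 2 and 3, indomethacin replicate 3 and diclofenac replicate 2. Slide 2 held DMSO replicate 3, all 3 ibuprofen arrays, GQ16 replicate 1 and diclofenac replicate 1. Slide 3 held rosiglitazone replicate 1, indomethacin replicates 1 and 2, GQ16 replicates 2 and 3 and diclofenac replicate 3, and no DMSO array. Within a slide, differences from DMSO thus rest on 1 treated array for indomethacin, diclofenac and GQ16. Those within slide 2 rest on 1 DMSO array. Adipocyte identity was checked with 8 markers, all of which passed the background filter; their mean level was 11.79 to 11.97 on the DMSO arrays and 12.03 to 12.10 on the rosiglitazone arrays. Among them the fatty acid transporter Cd36 rose (0.61 on the log2 scale) and Pparg, the gene of PPARγ, fell (-0.76) with rosiglitazone. Pparg also fell with indomethacin (-0.67) and ibuprofen (-0.40), Cd36 (0.71) and the lipid droplet protein Plin1 (0.51) rose with ibuprofen, and diclofenac and GQ16 had 0 calls among the 8. Of 3 brown adipocyte markers, Ucp1 and Prdm16 were below background, while Cidea, a lipid droplet protein, was bright. Cidea read 12.02 to 12.16 with DMSO, 12.37 to 12.64 with rosiglitazone, 12.40 to 12.72 with indomethacin, 12.09 to 12.65 with ibuprofen and 12.10 to 12.31 with diclofenac, and GQ16 arrays reached from below the lowest DMSO array to 12.66. Its difference of 0.44 with rosiglitazone did not pass (adjusted p = 0.0525), nor did those of the other compounds. Of 4 macrophage markers with a probe, Adgre1 and Ptprc were below background. Csf1r and Cd14 averaged 6.84 to 7.01 with DMSO and 6.97 to 7.29 with rosiglitazone, and neither was called with any compound. Markers of preadipocytes and fibroblasts moved with the treatments. Of 8 such markers, 5 fell with rosiglitazone, 5 with indomethacin, 4 with ibuprofen, 0 with diclofenac and 0 with GQ16. Their mean level was 9.71 to 10.02 with DMSO, 9.16 to 9.39 with rosiglitazone, 9.27 to 9.30 with indomethacin, 9.38 to 9.40 with ibuprofen, 9.48 to 9.66 with diclofenac and 9.53 to 9.93 with GQ16. The part of these marker genes in the carrier results was not tested, and in such bulk RNA fewer cells of a type and less RNA per cell cannot be told apart.

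The inner mitochondrial membrane is tight to most metabolites, and Slc25 proteins carry nucleotides, phosphate, organic acids, amino acids, cofactors and metal ions across it, usually by exchanging one solute for another. In white adipocytes the family links the mitochondrial matrix with lipid synthesis in the cytosol: citrate leaves through Slc25a1 and is cleaved to the acetyl-CoA used for fatty acids. A few relatives sit elsewhere, such as Slc25a17 in peroxisomes and Slc25a46 in the outer mitochondrial membrane.

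Carrier transcripts moved in both directions. The S-adenosylmethionine carrier Slc25a26 and the ATP-Mg/phosphate carrier Slc25a25 rose with rosiglitazone and with indomethacin, while the basic amino acid carrier Slc25a29, the coenzyme A carrier Slc25a42 and Slc25a45 fell with both. Among the 32 tested members, 13 differed among the 6 groups (limma F test, adjusted p under 0.05, 40.6%), beside 18.5% of all genes tested. Against DMSO, 4 members rose and 6 fell with rosiglitazone, beside 8.07% and 10% of all genes. With indomethacin 2 rose and 3 fell, beside 3.58% and 6.65%. With ibuprofen 1 rose and 1 fell, beside 4.26% and 5.2%. With diclofenac 0 rose and 0 fell, beside 0.621% and 1.48%, and with GQ16 0 rose and 0 fell, beside 0.684% and 0.748%. At an unadjusted p under 0.05 diclofenac had 2 members higher and 4 lower, beside 6.01% and 7.79% of all genes, and GQ16 had 1 higher and 4 lower, beside 8.94% and 8.1%. All 5 comparisons share the DMSO arrays. The members did not shift as a block: their median difference from DMSO was -0.08 on the log2 scale with rosiglitazone, -0.05 with diclofenac, -0.09 with indomethacin, 0.03 with ibuprofen and 0.04 with GQ16, where the median of all genes was between -0.00 and 0.01. Differences with rosiglitazone ran from -0.69 (Slc25a29) to 1.08 (Slc25a25). Without rosiglitazone replicate 1 and DMSO replicate 3, the called members numbered 8 with rosiglitazone, 2 with diclofenac, 9 with indomethacin, 10 with ibuprofen and 1 with GQ16. The order of the compounds by number of calls in this refit differed from that in the fit of all arrays. Fitting only the 2 groups compared left 3 calls with rosiglitazone (Slc25a25, Slc25a26 and Slc25a51) and 0 for GQ16 against rosiglitazone, and gave 8 with indomethacin and 5 with ibuprofen. The shares of all genes called in these refits are not given here. The refit counts are therefore not read as a result about the carriers. Fibroblast markers were called lower with the same 3 compounds that had carrier calls in the fit of all arrays. Those 3 compounds also had the largest shares of all genes called, given above. The match is therefore not read as a link between markers and carriers, and it holds for calls only. The median of these markers was -0.67 with rosiglitazone, -0.67 with indomethacin and -0.48 with ibuprofen. Without a call it was -0.40 with diclofenac and -0.10 with GQ16. The part of these markers was not tested.

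**Figure D1:**
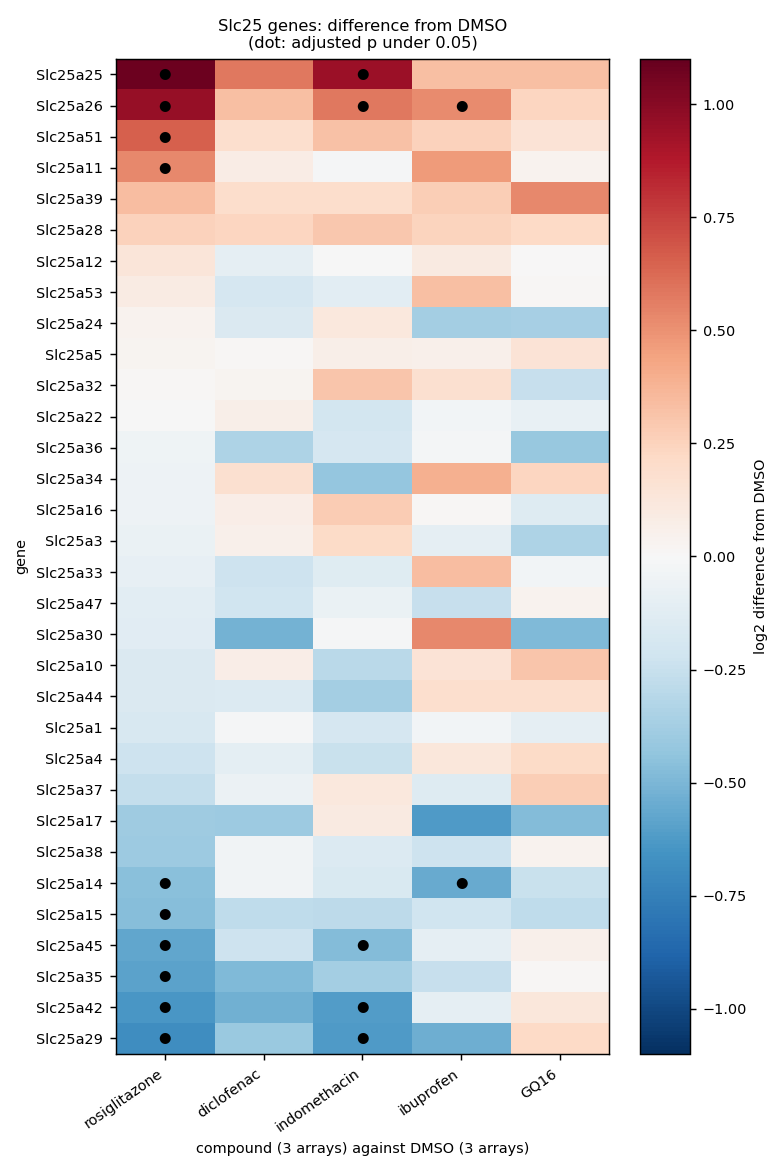
Each row is 1 of the 32 tested carrier genes, each column a compound, and colour gives the difference of group means from DMSO on the log2 scale (3 arrays a group, scale from -1.1 to 1.1); a dot marks an adjusted p under 0.05. Rosiglitazone has 10 dots, indomethacin 5, ibuprofen 2, and diclofenac and GQ16 have 0.

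Promoter windows of carriers called with both rosiglitazone and indomethacin were read from RefSeq (build GRCm38.p6, 250 bases before to 50 after the annotated start). They are shown because Slc25a25 is the riser with the largest change and has an entry, and Slc25a29, Slc25a42 and Slc25a45 fell with both rosiglitazone and indomethacin. Windows were at hand for 26 of the 32 tested members, 10 of the 15 called in any test among them. Each sequence runs 5′ to 3′ in the gene's direction, and capitals mark CCAAT or its reverse complement ATTGG in the first 3 sequences and the nuclear receptor hexamer AGGTCA in the last. Slc25a25 lies on the minus strand at chr2:32451421-32451720 (the most upstream of 3 annotated starts), Slc25a29 on the minus strand at chr12:108835827-108836126, Slc25a42 on the minus strand at chr8:70212232-70212531 and Slc25a45 on the plus strand at chr19:5877572-5877871.
Slc25a25: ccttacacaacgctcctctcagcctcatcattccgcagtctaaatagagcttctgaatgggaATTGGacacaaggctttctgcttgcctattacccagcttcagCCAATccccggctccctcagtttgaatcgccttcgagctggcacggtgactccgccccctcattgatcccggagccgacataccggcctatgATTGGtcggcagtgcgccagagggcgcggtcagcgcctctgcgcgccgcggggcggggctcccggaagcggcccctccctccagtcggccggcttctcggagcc
Slc25a29: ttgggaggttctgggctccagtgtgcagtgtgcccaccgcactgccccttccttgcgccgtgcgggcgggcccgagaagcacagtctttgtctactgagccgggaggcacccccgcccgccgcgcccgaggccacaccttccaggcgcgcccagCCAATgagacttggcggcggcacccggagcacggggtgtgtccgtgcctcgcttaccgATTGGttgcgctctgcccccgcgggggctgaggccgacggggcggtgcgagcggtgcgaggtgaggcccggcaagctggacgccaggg
Slc25a42: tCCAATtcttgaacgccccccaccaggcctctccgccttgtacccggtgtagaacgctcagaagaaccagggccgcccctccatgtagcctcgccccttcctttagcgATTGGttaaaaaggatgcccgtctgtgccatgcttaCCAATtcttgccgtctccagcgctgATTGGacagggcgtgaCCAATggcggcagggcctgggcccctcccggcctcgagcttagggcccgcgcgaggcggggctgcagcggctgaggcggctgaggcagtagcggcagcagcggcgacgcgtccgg
Slc25a45: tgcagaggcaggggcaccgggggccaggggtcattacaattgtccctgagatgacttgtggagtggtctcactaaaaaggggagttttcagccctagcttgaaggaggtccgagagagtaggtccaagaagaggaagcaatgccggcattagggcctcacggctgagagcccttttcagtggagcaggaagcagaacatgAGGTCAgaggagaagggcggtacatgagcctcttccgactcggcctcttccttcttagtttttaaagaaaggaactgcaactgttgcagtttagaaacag

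The Slc25a42 window holds 5 CCAAT matches, that of Slc25a25 3 and that of Slc25a29 2. Windows of the other annotated starts of Slc25a25, not shown, hold 1 and 2. CCAAT boxes are bound by the factor NF-Y and are common in promoters. CCAAT, searched on both strands, was in 18 of 34 member windows and in 37.4% of all 32851 windows of that length. The Slc25a45 window holds AGGTCA, the hexamer that nuclear receptors such as PPARγ recognise, with its first base 50 bases before the start. AGGTCA or its reverse complement was in 4 of 34 member windows (Slc25a34, Slc25a39, Slc25a45 and Slc25a47) and in 16.3% of all windows. The direct repeat of this hexamer with 1 base between the copies, which PPARγ binds with its partner RXR, was in 0 member windows and 0.0396% of all. The extended hexamer TCAAGGTCA of the estrogen-related receptors was in 0 and 0.423%, and the E box CACGTG in 6 and 7.15%. These matches describe letters in a short window and do not show that a factor binds.

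The ADP/ATP and phosphate carriers supply oxidative phosphorylation with ADP and phosphate and export ATP. Of 5 tested, 1 rose with rosiglitazone and 1 with indomethacin, in both cases Slc25a25, a carrier regulated by calcium that exchanges ATP-Mg for phosphate and so adjusts the adenine nucleotide pool of the matrix. Slc25a25 read 8.77, 8.88 and 8.20 on DMSO replicates 1 to 3 and 9.52, 10.00 and 9.56 with rosiglitazone. It read 9.77, 9.44 and 9.46 with indomethacin, 9.04, 9.27 and 9.28 with diclofenac, 8.92, 9.17 and 8.74 with ibuprofen and 8.91, 8.86 and 9.06 with GQ16. Every array of rosiglitazone, indomethacin and diclofenac lay above every DMSO array, whereas ibuprofen and GQ16 overlapped DMSO. The rise was 1.08 ± 0.18 on the log2 scale with rosiglitazone (2.11-fold, SE, n = 3 per group, adjusted p = 0.000194) and 0.94 ± 0.18 with indomethacin (1.92-fold, adjusted p = 0.00129). Both calls held without each array of the 2 groups compared in turn. With slide as a block the differences were 1.00 and 0.90, and within slide 1 they were 0.96 and 0.64. The diclofenac difference of 0.58 did not pass (adjusted p = 0.105), nor did 0.33 with ibuprofen (0.28) and 0.33 with GQ16 (0.365).

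The other tested members of this group were not called. Slc25a5, an ADP/ATP exchanger, had group means within 0.147 of one another on the log2 scale, the narrowest range of the tested members, and differed from DMSO by 0.03 with rosiglitazone (95% interval -0.22 to 0.27). Its relative Slc25a4 differed by -0.23 with rosiglitazone and 0.21 with GQ16, and neither passed. The phosphate carrier Slc25a3 was spread within groups: it read 11.91, 12.11 and 11.47 with DMSO and 10.93, 12.41 and 11.95 with rosiglitazone. Slc25a24, another calcium-regulated ATP-Mg carrier, differed by -0.37 with ibuprofen and -0.37 with GQ16 and missed the F test (adjusted p = 0.0547). Without the outlying arrays the ibuprofen value was -0.49 and passed (0.0304). A second probe above background on all 18 arrays read 7.14, 7.08 and 7.09 with ibuprofen, inside its DMSO values of 7.18, 7.41 and 6.95. A dimmer probe, above background on 7 arrays, read 6.07, 6.40 and 6.24 with ibuprofen and 6.06, 6.14 and 6.22 with DMSO.

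The di- and tricarboxylate carriers exchange citrate, malate and oxoglutarate between matrix and cytosol. Slc25a11, the oxoglutarate/malate carrier of the malate-aspartate shuttle, was the 1 member of 5 that rose with rosiglitazone. It read 11.16, 11.01 and 11.76 with DMSO and 12.08, 11.72 and 11.72 with rosiglitazone, so DMSO replicate 3 overlapped the treated arrays. The rise was 0.53 ± 0.17 (adjusted p = 0.0298), and 0.60 with the slide block and 0.64 within slide 1. Leaving out DMSO replicate 1 (adjusted p = 0.129), DMSO replicate 2 (0.183) or rosiglitazone replicate 1 (0.12) ended the call. Ibuprofen arrays read 11.89, 11.93 and 11.50, a difference of 0.47 that did not pass (adjusted p = 0.0827); it was 0.69 without DMSO replicate 3 (0.00502), 0.69 without rosiglitazone replicate 1 as well (0.00123), but 0.01 within slide 2, which holds that DMSO array and the ibuprofen arrays. The slide and DMSO replicate 3 cannot be told apart in that comparison. The dimmer probes of Slc25a11, above background on all 18 arrays, gave 0.14 and 0.30 with ibuprofen. Neither passed (adjusted p = 0.702 and 0.263, among all probes tested separately). Arrays of the remaining compounds read 11.20 to 11.54 with diclofenac, 11.22 to 11.41 with indomethacin and 11.25 to 11.47 with GQ16.

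Slc25a10, the dicarboxylate carrier, passed the F test (adjusted p = 0.0434) without a call against DMSO. It was highest with GQ16, at 12.59, 12.69 and 12.41, and lowest with indomethacin, at 11.94, 11.93 and 12.02, where DMSO arrays read 12.33, 12.42 and 12.04. The 3 indomethacin arrays lay below all DMSO arrays, a difference of -0.30 (adjusted p = 0.232). Rosiglitazone arrays read 12.47, 11.80 and 12.05 and overlapped DMSO, with a difference of -0.16 (adjusted p = 0.5). Slc25a10 was called lower with both once the outlying arrays were left out, at -0.45 with rosiglitazone (adjusted p = 0.0302) and -0.41 with indomethacin (0.033). Diclofenac arrays read 12.18 to 12.61 and ibuprofen arrays 12.36 to 12.48. The citrate carrier Slc25a1 read 13.57, 13.52 and 13.59 with DMSO and 13.45, 13.45 and 13.27 with rosiglitazone, which do not overlap, but the difference of -0.17 did not pass (adjusted p = 0.248). A second probe of Slc25a1 gave 0.32 with rosiglitazone, in the opposite direction, and did not pass either (adjusted p = 0.128, among all probes tested separately). Slc25a12, an aspartate/glutamate exchanger of the malate-aspartate shuttle, differed by 0.13 with rosiglitazone. Slc25a22, a glutamate carrier, was above background on 4 arrays and differed by -0.00 with rosiglitazone.

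Among carriers of amino acids, glutathione and S-adenosylmethionine, 1 of 6 rose and 2 fell with rosiglitazone. Slc25a26 imports S-adenosylmethionine, the methyl donor for mitochondrial RNA, proteins and cofactors. It read 9.59, 9.70 and 9.61 with DMSO and 10.65, 10.44 and 10.68 with rosiglitazone. The other compounds lay between: 10.24, 10.30 and 10.12 with indomethacin, 10.16, 10.15 and 10.15 with ibuprofen, 10.07, 9.85 and 9.97 with diclofenac, and 9.92, 10.01 and 9.67 with GQ16. Arrays of rosiglitazone, indomethacin, ibuprofen and diclofenac lay above all DMSO arrays, and GQ16 replicate 3 overlapped them. The rise was 0.96 ± 0.14 with rosiglitazone (1.94-fold, adjusted p = 2.09e-05), 0.58 ± 0.14 with indomethacin (adjusted p = 0.00595) and 0.52 ± 0.14 with ibuprofen (adjusted p = 0.0171). With slide as a block these were 0.96, 0.57 and 0.45, and the last no longer passed (adjusted p = 0.146); within slide 1 rosiglitazone gave 0.91 and indomethacin 0.47, and within slide 2 ibuprofen gave 0.54. The ibuprofen call was also lost without DMSO replicate 1 (0.0798) or ibuprofen replicate 1 (0.057). Diclofenac at 0.33 (adjusted p = 0.251) and GQ16 at 0.23 (0.393) did not pass.

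Slc25a29, a carrier of arginine, lysine and other basic amino acids, had the largest fall of the tested members with rosiglitazone. DMSO arrays read 9.61, 9.57 and 9.33, and rosiglitazone arrays 8.99, 8.68 and 8.79. Indomethacin arrays read 8.65, 9.07 and 8.94, diclofenac arrays 9.19, 9.05 and 9.04, ibuprofen arrays 9.02, 8.73 and 9.16, and GQ16 arrays 9.57, 10.16 and 9.46. All arrays of the first 4 of these compounds lay below every DMSO array, and those of GQ16 did not. The gene fell by 0.69 ± 0.18 with rosiglitazone (adjusted p = 0.00955) and by 0.62 ± 0.18 with indomethacin (adjusted p = 0.0272). Differences of -0.53 with ibuprofen (adjusted p = 0.0615; -0.62 and 0.0183 without the outlying arrays) and -0.41 with diclofenac (0.292) did not pass, and GQ16 gave 0.22. With slide as a block rosiglitazone gave -0.73 and indomethacin -0.68, and within slide 1 -0.86 and -0.65. The indomethacin call was lost without DMSO replicate 1 (0.115), DMSO replicate 2 (0.0988), indomethacin replicate 1 (0.178) or indomethacin replicate 3 (0.0641).

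Slc25a15, the ornithine carrier of the urea cycle, read 9.90, 9.93 and 10.14 with DMSO and 9.42, 9.44 and 9.70 with rosiglitazone. It fell by 0.47 ± 0.16 (adjusted p = 0.0414; -0.50 with the slide block, -0.34 within slide 1). The call was lost without DMSO replicate 1, 2 or 3 (0.0709, 0.0811 and 0.113) and without rosiglitazone replicate 1 or 2 (0.0946 and 0.0796), and a second probe gave 0.29. With the outlying arrays left out the value was -0.34 (adjusted p = 0.19). Arrays of the other compounds read 9.49 to 10.00. Slc25a44, which carries branched-chain amino acids, passed the F test (adjusted p = 0.0138). It was lowest with indomethacin, at 10.38, 10.36 and 10.24, and read 10.70, 10.75 and 10.65 with DMSO. The other arrays read 10.72, 10.41 and 10.50 with rosiglitazone, 10.56, 10.45 and 10.65 with diclofenac, 10.82, 10.99 and 10.85 with ibuprofen and 10.72, 10.98 and 10.97 with GQ16. The indomethacin arrays lay below the DMSO arrays by 0.38, and the test was missed (adjusted p = 0.0688; -0.51 with the slide block, adjusted p = 0.0189; -0.40 without the outlying arrays, 0.0374). Slc25a38, a glycine carrier needed for haem synthesis, differed by -0.40 with rosiglitazone (adjusted p = 0.0709). Slc25a39, which brings glutathione into the matrix, had its largest difference with GQ16, 0.53, and did not pass (adjusted p = 0.12).

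Of 7 nucleotide and cofactor carriers, 1 rose and 1 fell with rosiglitazone. Slc25a42 exchanges coenzyme A and adenine nucleotides. It read 9.12, 9.31 and 8.84 with DMSO and 8.72, 8.34 and 8.28 with rosiglitazone. It read 8.30, 8.58 and 8.54 with indomethacin, 8.56, 8.60 and 8.52 with diclofenac, 8.88, 9.20 and 8.90 with ibuprofen and 8.96, 9.23 and 9.45 with GQ16. The groups thus formed a low set (rosiglitazone, indomethacin and diclofenac), each below all DMSO arrays, and a set that overlapped DMSO (ibuprofen and GQ16). The fall was 0.64 ± 0.17 with rosiglitazone (difference -0.64, adjusted p = 0.0102) and 0.61 ± 0.17 with indomethacin (difference -0.61, adjusted p = 0.0211), and diclofenac at -0.53 did not pass (adjusted p = 0.114; -0.66 and 0.0191 without the outlying arrays). With the slide block these differences were -0.74, -0.74 and -0.56, and within slide 1 -0.91, -0.67 and -0.62. On slide 2 diclofenac replicate 1 read 8.56 and DMSO replicate 3 read 8.84, a smaller gap than within slide 1. The rosiglitazone call was lost without DMSO replicate 2 (0.0733). The indomethacin call was lost without DMSO replicate 1 (0.0783) or 2 (0.127) and without indomethacin replicate 1 (0.132) or 3 (0.0501).

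Slc25a51, the mitochondrial NAD+ carrier, read 6.36, 6.41 and 6.68 with DMSO, close to the background level, and 7.55, 7.02 and 6.86 with rosiglitazone. The groups did not overlap, and the rise was 0.66 ± 0.14 (adjusted p = 0.00248), 0.64 with the slide block and 0.55 within slide 1. Rosiglitazone replicate 1 had the highest value, and the call held without it. Arrays of the other compounds read 6.47 to 6.97, with differences of 0.15 to 0.33 that did not pass. Once the outlying arrays were left out, indomethacin (0.42, adjusted p = 0.0181) and ibuprofen (0.35, 0.0375) were also called. Slc25a17, which serves peroxisomes with coenzyme A and other nucleotides, read 9.44, 9.61 and 9.29 with ibuprofen and 10.09, 10.46 and 9.67 with DMSO. Its difference of -0.63 was the largest with ibuprofen among the members and did not pass (adjusted p = 0.0674). Slc25a17 was called lower without the outlying arrays with ibuprofen (-0.83, adjusted p = 0.000898), GQ16 (-0.68, 0.0175) and diclofenac (-0.60, 0.0355). The pyrimidine nucleotide carriers Slc25a33 and Slc25a36, the folate carrier Slc25a32 and Slc25a16, a relative of the coenzyme A carriers, were not called in any comparison of all arrays; Slc25a33 gave 0.45 with ibuprofen without the outlying arrays (adjusted p = 0.0242).

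Of the mitoferrins, which bring iron into the matrix for haem and iron-sulphur clusters, Slc25a28 was higher with every compound by 0.22 to 0.30 without a call; without the outlying arrays indomethacin gave 0.39 and passed (adjusted p = 0.0399). Slc25a37 read 7.67, 7.72 and 7.73 with DMSO and 7.25, 7.76 and 7.34 with rosiglitazone, a difference of -0.26 that did not pass, and 7.90, 7.92 and 8.11 with GQ16. It read up to 7.83 with diclofenac, 7.67 to 7.97 with indomethacin and 7.39 to 7.65 with ibuprofen.

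Slc25a14 and Slc25a30 are relatives of the uncoupling proteins whose transported solutes are less well defined. Slc25a14 read 7.52, 7.57 and 7.39 with DMSO, 6.98, 6.82 and 7.01 with ibuprofen and 6.75, 7.44 and 6.91 with rosiglitazone. It fell by 0.56 ± 0.15 with ibuprofen (adjusted p = 0.0201), where the arrays did not overlap DMSO, and by 0.46 ± 0.15 with rosiglitazone (adjusted p = 0.0345), where replicate 2 overlapped. The ibuprofen value was -0.43 with the slide block (0.135) and -0.46 within slide 2, and leaving out DMSO replicate 1 (0.0792) or 2 (0.0998) or ibuprofen replicate 1 (0.0534) or 2 (0.0861) ended that call. The rosiglitazone value was -0.42 with the slide block and -0.37 within slide 1, and the call was lost without DMSO replicate 1 (0.0981) or 2 (0.119) and rosiglitazone replicate 1 (0.165) or 3 (0.109). It was -0.37 without the outlying arrays (0.12). Slc25a14 read 7.31 to 7.60 with diclofenac, 7.16 to 7.52 with indomethacin and 7.15 to 7.30 with GQ16.

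Slc25a30 differed in opposite directions with ibuprofen and diclofenac. It read 8.22, 8.14 and 8.60 with DMSO, 7.77, 8.45 and 8.37 with rosiglitazone, 8.31, 8.33 and 8.28 with indomethacin, 8.73, 8.84 and 8.99 with ibuprofen, 7.80, 7.62 and 7.98 with diclofenac and 8.19, 7.63 and 7.69 with GQ16. Ibuprofen arrays were all above and diclofenac arrays all below the DMSO arrays. The group means spanned 1.05 on the log2 scale (F test, adjusted p = 0.00193). No difference from DMSO passed: 0.53 ± 0.19 with ibuprofen (adjusted p = 0.0717), -0.52 ± 0.19 with diclofenac (0.162) and -0.49 ± 0.19 with GQ16 (0.178). Within slide 2 these were 0.25, -0.80 and -0.41. Without DMSO replicate 3 ibuprofen gave 0.67 and passed, as it did without rosiglitazone replicate 1 as well (0.67, adjusted p = 0.00486).

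Of 5 tested carriers with other or unsettled substrates, 2 fell with rosiglitazone. Slc25a45 read 9.06, 8.87 and 9.05 with DMSO, 8.34, 8.37 and 8.57 with rosiglitazone and 8.46, 8.58 and 8.52 with indomethacin. It read 8.77, 8.62 and 8.90 with diclofenac, 8.91, 8.89 and 8.89 with ibuprofen and 9.11, 8.88 and 9.16 with GQ16. Rosiglitazone and indomethacin arrays lay below all others, and the falls were 0.57 ± 0.14 (difference -0.57, adjusted p = 0.00678) and 0.47 ± 0.14 (difference -0.47, adjusted p = 0.0339). With the slide block they were -0.55 and -0.47, of which the second missed (0.0677), and within slide 1 -0.50 and -0.44. The indomethacin call was lost without any 1 of its arrays or the DMSO arrays (adjusted p of 0.0502 to 0.142). Slc25a35 read 8.34, 8.43 and 8.58 with DMSO and 7.58, 8.06 and 7.95 with rosiglitazone, a fall of 0.59 ± 0.16 (difference -0.59, adjusted p = 0.0138; -0.60 with the slide block, -0.38 within slide 1) that was lost without rosiglitazone replicate 1 (0.0633) and was -0.38 without that array and DMSO replicate 3 (0.132). Slc25a35 also lay below all DMSO arrays with diclofenac (-0.49), indomethacin (-0.37) and ibuprofen (-0.25), none of which passed; those arrays read 7.92 to 8.30, and GQ16 arrays 8.28 to 8.82.

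Slc25a34 passed the F test (adjusted p = 0.0169) and, on its brightest probe, was highest with ibuprofen and lowest with indomethacin. It read 10.28, 10.20 and 10.08 with DMSO, 10.41, 10.78 and 10.53 with ibuprofen and 9.59, 9.94 and 9.75 with indomethacin, and these 3 groups did not overlap. Rosiglitazone arrays read 10.50, 9.75 and 10.15, diclofenac arrays 10.42, 10.30 and 10.37 and GQ16 arrays 10.33, 10.71 and 10.23. The differences from DMSO were 0.39 (adjusted p = 0.165) and -0.42 (0.127) and did not pass. With indomethacin the other probes, above background on all 18 arrays, overlapped DMSO. The brighter of them read 7.12, 7.13 and 7.18 with indomethacin and 6.91, 6.77 and 7.25 with DMSO. The dimmer read 6.62, 6.57 and 6.46 with indomethacin and 6.59, 6.51 and 6.63 with DMSO. Slc25a47 and Slc25a53 were not called, although Slc25a53 gave 0.49 with ibuprofen without the outlying arrays (adjusted p = 0.0278).

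**Figure D2:**
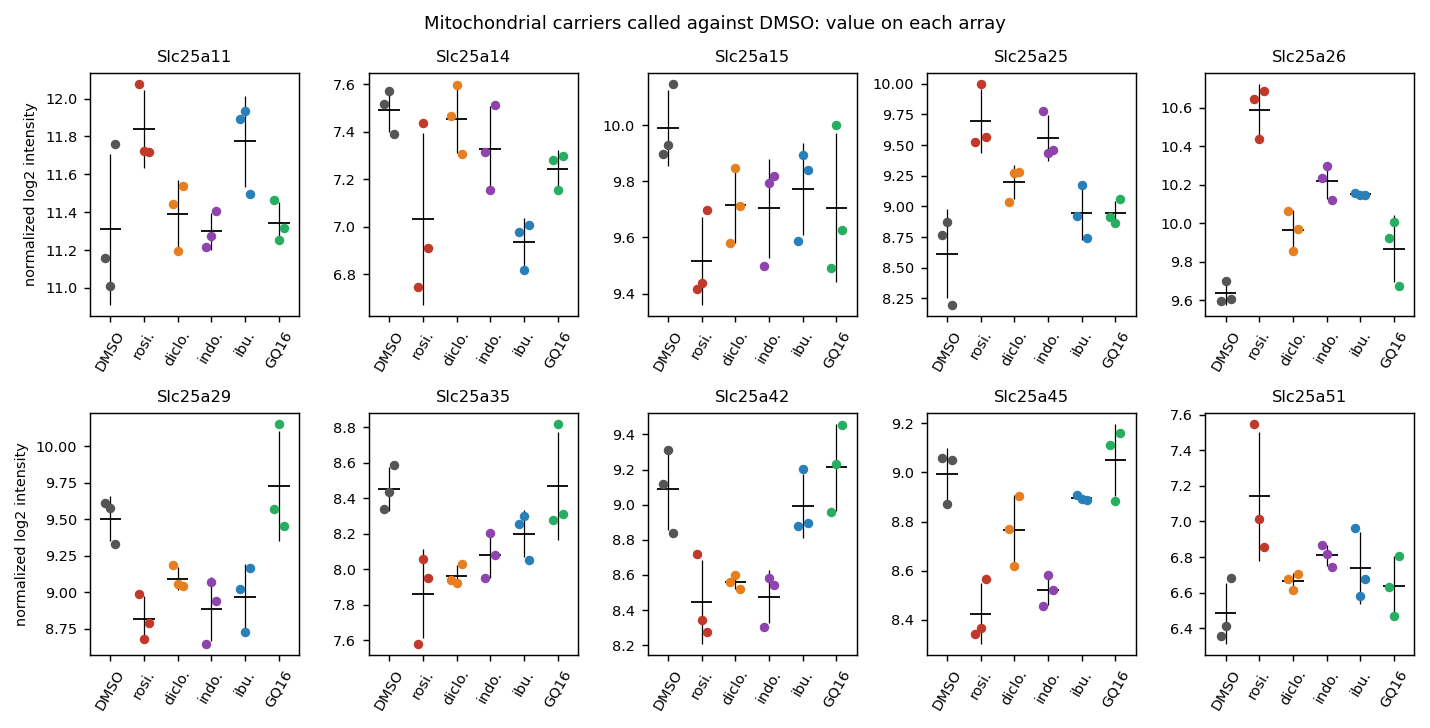
Normalized log2 intensity (vertical axes, scaled for each gene) on each of the 18 arrays for the 10 carriers called against DMSO, with a horizontal bar at the group mean and a vertical bar of ± SD (n = 3). All rosiglitazone points of Slc25a25, Slc25a26 and Slc25a51 lie above the DMSO points and those of Slc25a29, Slc25a35, Slc25a42 and Slc25a45 below them, while GQ16 points overlap the DMSO points for all of these genes.

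GQ16 was set against rosiglitazone directly, at 10 µM and 100 nM. Of the 32 members 6 were higher and 4 lower with GQ16, beside 8.74% and 6.04% of all genes. Higher with GQ16 were Slc25a29 (0.91 ± 0.18, adjusted p = 0.00149), Slc25a42 (0.77 ± 0.17, adjusted p = 0.00393), Slc25a45 (0.63 ± 0.14), Slc25a35 (0.61 ± 0.16), the mitoferrin Slc25a37 (0.53 ± 0.15) and the dicarboxylate carrier Slc25a10 (0.46 ± 0.15). Lower were Slc25a25 (-0.75 ± 0.18, adjusted p = 0.00763), Slc25a26 (-0.72 ± 0.14, adjusted p = 0.000836), Slc25a51 (-0.51 ± 0.14) and Slc25a11 (-0.50 ± 0.17). The rosiglitazone arrays enter this comparison and that with DMSO, in which 8 of these 10 genes were also called. Within slide 3, which holds rosiglitazone replicate 1 and GQ16 replicates 2 and 3, the first 3 gave 0.82, 0.62 and 0.68, and Slc25a25 and Slc25a26 gave -0.56 and -0.81. Slc25a10 gave 0.09 within that slide and 0.40 with the slide block (adjusted p = 0.0959).

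Several of these calls were lost when a single array was left out. Without rosiglitazone replicate 1, Slc25a11 (adjusted p = 0.152), Slc25a35 (0.0541), Slc25a37 (0.0583) and Slc25a51 (0.116) no longer passed. Without GQ16 replicate 2, Slc25a10 (0.14), Slc25a11 (0.138), Slc25a35 (0.0977) and Slc25a51 (0.0977) did not, nor did Slc25a37 without rosiglitazone replicate 3 (0.0623) or GQ16 replicate 3 (0.0676). Slc25a10 was lost without rosiglitazone replicate 2 (0.183), rosiglitazone replicate 3 (0.0945) or GQ16 replicate 1 (0.0848). Slc25a11 was also lost without rosiglitazone replicate 2 (0.052) or 3 (0.0562) and GQ16 replicate 1 (0.053) or 3 (0.1). The calls of Slc25a25, Slc25a26, Slc25a29, Slc25a42 and Slc25a45 held without each rosiglitazone and each GQ16 array in turn. With the outlying arrays left out, Slc25a11 (-0.38, adjusted p = 0.0635), Slc25a37 (0.43, 0.0519) and Slc25a51 (-0.30, 0.0851) were lost. In that fit Slc25a34 (0.47, 0.0466) and Slc25a44 (0.44, 0.0216) were called higher with GQ16, and Slc25a3 (-0.69, 0.014), Slc25a30 (-0.57, 0.0168) and Slc25a36 (-0.53, 0.0164) lower.

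**Figure D3:**
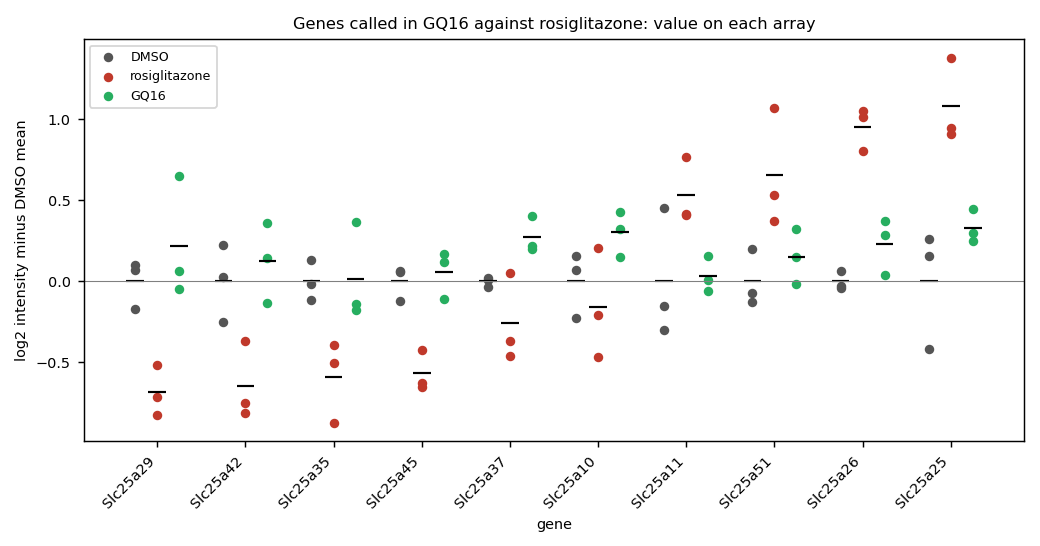
Log2 intensity minus the DMSO mean (vertical axis) on the DMSO, rosiglitazone and GQ16 arrays (3 points each) for the 10 carriers called in GQ16 against rosiglitazone, with a bar at each group mean. Rosiglitazone means run from -0.69 for Slc25a29 to 1.08 for Slc25a25, and GQ16 means lie between 0.02 and 0.33.

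The 3 non-steroidal drugs were also set against rosiglitazone. With indomethacin 0 of the 32 members were higher and 0 lower, beside 0.00913% and 0.0274% of all genes, and at an unadjusted p under 0.05 it had 2 members higher and 4 lower, beside 4.56% and 4.2%. For Slc25a25 the interval of the difference was -0.51 to 0.24 and for Slc25a29 it was -0.30 to 0.44, so a difference of that size could have been missed. The largest of the unadjusted set was Slc25a11, at -0.54 (adjusted p = 0.394), and Slc25a26 differed by -0.37 (0.529). With diclofenac 0 were higher and 1 lower, beside 1.01% and 0.931%, and the latter was Slc25a26 at -0.63 ± 0.14 (adjusted p = 0.0155). It gave -0.66 with the slide block, -0.71 within slide 1 and -0.68 within slide 3, and was lost without rosiglitazone replicate 3 (0.0533) or diclofenac replicate 2 (0.086) or 3 (0.0537). With ibuprofen 0 were higher and 1 lower, beside 0.63% and 0.712%, and the latter was Slc25a25 at -0.75 ± 0.18 (adjusted p = 0.0388). It was -0.42 with the slide block (0.517), no slide held both groups, and the call was lost without rosiglitazone replicate 2 (0.118) or ibuprofen replicate 1, 2 or 3 (0.117, 0.0647 and 0.138). Without the outlying arrays, Slc25a10 (0.49, adjusted p = 0.0349), Slc25a33 (0.57, 0.0255), Slc25a34 (0.63, 0.0328) and Slc25a42 (0.68, 0.02) were called higher with ibuprofen than with rosiglitazone.

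Probes for the same carrier did not always move together. A gene's value above is that of its brightest probe, and 10 genes had several probes above background. For Slc25a11 the 3 probes gave 0.53, 0.50 and 0.41 with rosiglitazone, but with indomethacin the brightest gave -0.01 and another 0.63 (adjusted p = 0.0332, among all probes tested separately). The probes of Slc25a15 gave -0.47 and 0.29 with rosiglitazone, in opposite directions. A dimmer probe of the citrate carrier Slc25a1 gave 0.62 with ibuprofen (adjusted p = 0.00698) where the brightest gave -0.03. With rosiglitazone that dimmer probe gave 0.32 and the brightest -0.17. A dimmer probe of Slc25a34 gave 0.64 with ibuprofen (adjusted p = 0.00523) and 0.57 with GQ16 (adjusted p = 0.0441), where the brightest gave 0.39 and 0.24. With indomethacin that dimmer probe overlapped DMSO, where the brightest lay below all DMSO arrays. A dimmer probe of Slc25a12, above background on 7 arrays, gave -0.23 with rosiglitazone (adjusted p = 0.0422) and -0.26 with ibuprofen (adjusted p = 0.0301), against 0.13 and 0.10. Which transcripts each probe detects was not analysed here. Slc25a25, Slc25a26, Slc25a29, Slc25a35, Slc25a45 and Slc25a51 each had 1 probe on the array, and Slc25a42 had 1 of 4 that passed the background filter, so their values have no second probe to set beside them.

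**Figure D4:**
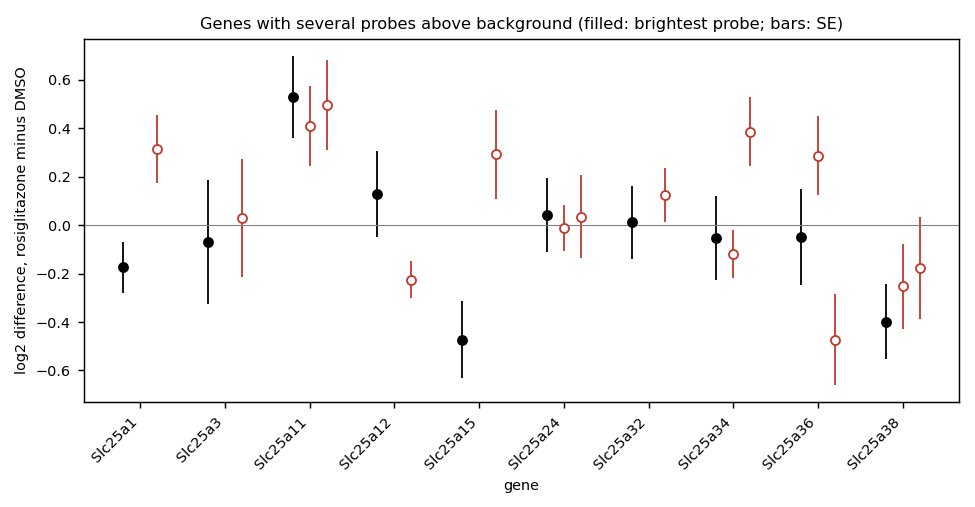
Log2 difference of rosiglitazone from DMSO (vertical axis, bars of ± SE) for every probe above background of the 10 carriers with several such probes; filled points are the brightest probe of each gene. The 3 probes of Slc25a11 lie between 0.41 and 0.53, while those of Slc25a15 lie at -0.47 and 0.29.

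Neighbouring mitochondrial genes were described from lists chosen with earlier results of these data known. Of 12 genes for respiration and mitochondrial mass, 4 rose with rosiglitazone and 0 fell: the coactivator Ppargc1a (0.94), the chaperone Hspd1 (0.68), the complex I subunit Ndufb3 (0.58) and the nuclear receptor Esrra (0.51). Their median was 0.23, and 8.07% of all genes rose with rosiglitazone. Of 11 genes of the machinery that imports carriers into mitochondria, 3 rose with rosiglitazone, namely the outer membrane pore Tomm40 (0.61), the small chaperone Timm9 (0.59) and Timm10b (0.46), with a median of 0.27. With indomethacin Ppargc1a (0.85) and the cytochrome c gene Cycs (0.35) of the first list and Timm9 (0.44) of the second rose, and with ibuprofen Ppargc1a (1.05) and Tomm40 (0.72) did. Diclofenac and GQ16 had 0 calls in either list. Of 8 enzymes of the citrate and malate-aspartate shuttles, the malate dehydrogenase Mdh2 rose (0.58) with rosiglitazone. The citrate cleavage enzyme Acly (-0.34), the cytosolic isocitrate dehydrogenase Idh1 (-0.39) and the pyruvate carboxylase Pcx (-0.56) fell. With indomethacin Mdh2 rose (0.57) and Idh1 fell (-0.40), with ibuprofen Acly fell (-0.35), and diclofenac and GQ16 had 0 calls. Of 12 other mitochondrial membrane carriers and channels, the calcium uniporter Mcu rose with rosiglitazone (0.77), indomethacin (0.85) and ibuprofen (0.99). In the same list the sideroflexins Sfxn2 (-0.84) and Sfxn3 (-0.41) fell with rosiglitazone. With indomethacin the outer membrane channel Vdac2 rose (0.76) and Sfxn2 (-0.75) and Sfxn5 (-0.45) fell, with ibuprofen the uncoupling protein Ucp3 rose (0.37), and diclofenac and GQ16 had 0 calls. The carrier family had a median of -0.08 with rosiglitazone, beside -0.00 for all genes; no test compared it with these lists.

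Called in no test of all arrays were 17 of the 32 members, with group means spanning 0.147 to 0.726 on the log2 scale. The 13 genes below background were Slc25a2, Slc25a13, Slc25a18, Slc25a21, Slc25a23, Slc25a27, Slc25a31, Slc25a40, Slc25a41, Slc25a43, Slc25a46, Slc25a48 and Slc25a54. Their 20 probes read 5.70 to 6.41, no direction was read from them, and an intensity below background does not show that a transcript was missing. They include Slc25a13, a second aspartate/glutamate exchanger, and Slc25a31, an ADP/ATP carrier of the testis.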

How the data were processed

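Total RNA from 18 samples was labelled and hybridised to Illumina mouse arrays, per the labels. The deposited values are normalized log2 intensities; the submitters' processing notes name GenomeStudio and lumi. All 18 deposited columns hold the same sorted values within 0.002, so the authors had quantile normalized them, and base 2 was inferred from the range. Equal distributions hide a shift shared by most transcripts, and dim probes are compressed, so changes of dim genes are understated. A table of non-normalized signals (36 columns) was not used because its columns could not be matched to samples. Symbols came from the platform annotation.

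Background was the 95th percentile of 1523 probes of trace amine, vomeronasal and olfactory receptor genes (6.18). Probes above it on at least 3 arrays were kept, and the brightest stood for its gene. Limma 3.58.1 in R 4.3.3 fitted 6 group means to 10957 genes (12 residual degrees of freedom, trended prior), with an F test and 9 two-sided comparisons. P-values were Benjamini-Hochberg adjusted over all genes; those under 0.05 were called, and only these are described as rises or falls. The number of arrays limits the precision. Genes passing a test are given with their values, on every array for the 8 with the lowest F test p and otherwise on the arrays of the groups compared, with ranges for the rest; members are ordered by role. Pairing of arrays by replicate number was not seen. Over 45 pairs sharing a number, deviations from group means correlated by -0.33 to 0.53 (median -0.01). Over 90 pairs with other numbers they correlated by -0.41 to 0.39 (median 0.01). The check does not exclude a weak pairing. Members and lists were chosen with earlier results of these data known.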

Additional observations from a re-analysis of the deposited data

How the results depend on the processing

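Of 29 called pairs of gene and comparison, 5 kept their call under every alternative tried (Slc25a25 and Slc25a26 with rosiglitazone and with indomethacin, Slc25a51 with rosiglitazone), and 0 reversed. The counts in this section are given without the share of all genes called in the same fit. They are therefore not read as a result about the carriers. Counts of called members that moved by over 1.5 times follow. With slide as a fixed block they were 0 for ibuprofen against DMSO, 4 for diclofenac against rosiglitazone and 0 for ibuprofen against rosiglitazone. With no filter on dim probes 8 members passed the F test, 1 was called for ibuprofen against DMSO and 0 for ibuprofen against rosiglitazone. With all kept probes tested separately ibuprofen against DMSO had 5 and GQ16 against DMSO 1. With no trend in the variance prior ibuprofen against rosiglitazone had 3. Without the 2 arrays apart (rosiglitazone replicate 1 and DMSO replicate 3) 20 passed the F test, and calls numbered 2 for diclofenac, 9 for indomethacin, 10 for ibuprofen and 1 for GQ16 against DMSO and 5 for ibuprofen against rosiglitazone. Fitting only the 2 groups compared, with fewer arrays to estimate the spread, left 3 for rosiglitazone, 8 for indomethacin and 5 for ibuprofen against DMSO, and 0 for diclofenac, ibuprofen and GQ16 against rosiglitazone. The causes were not tested. Fewer samples entered both the last fit and the fit without the 2 arrays apart.

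Without each of the 18 arrays in turn, F test calls ranged from 8 to 16. Comparisons left out only arrays of the 2 groups compared. Against DMSO the calls ranged from 6 to 10 with rosiglitazone, from 2 to 4 with indomethacin, from 0 to 7 with ibuprofen and from 0 to 1 with GQ16, and diclofenac stayed at 0. Against rosiglitazone they ranged from 0 to 2 for diclofenac, from 0 to 4 for ibuprofen and from 6 to 9 for GQ16, and indomethacin stayed at 0. The low F count, 8, came without DMSO replicate 2, and the low rosiglitazone count, 6, without DMSO replicate 2 or rosiglitazone replicate 1. The high ibuprofen count, 7, came without DMSO replicate 3, and the low GQ16 against rosiglitazone count, 6, without GQ16 replicate 2. A replicate block, which the pairing check did not support as 7 of 18 arrays correlated best with an array of their own number, gave 14 for the F test, 10, 0, 5, 3 and 0 against DMSO (rosiglitazone, diclofenac, indomethacin, ibuprofen, GQ16) and 9 for GQ16 against rosiglitazone. Shifting arrays to one median gave 9 for rosiglitazone and 4 for indomethacin against DMSO. Carriers near the background level, such as Slc25a51, are limited by compression of dim signal.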
